A study of Mus musculus with 8 samples.

Results

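The nonclassical MHC class I genes of tumor-associated macrophages (TAMs) were followed in mice with and without collectin-11 (CL-11), a soluble lectin encoded by Colec11. The 10 genes were H2-T10, H2-T22, H2-T23, H2-T24, H2-Q4, H2-Q6, H2-Q7, H2-M2, H2-M3 and Cd1d1, taken by their symbols from 16786 genes that had a value in the 7 complete libraries. All 10 were found and all 10 were tested. The TAMs were sorted as CD45+F4/80+ cells from s.c. B16 melanomas 14 days after inoculation and profiled by bulk RNA-Seq. TAM-WT came from 4 WT mice and TAM-KO from 4 Colec11-/- mice, both C57BL/6, and both groups carried the same tumor cells and received no drug. The study's methods give the Colec11-/- mice as a germ line knockout backcrossed for at least 10 generations, the controls as WT littermates, and the mice used as males 8 to 10 weeks old. CL-11 is therefore missing from every host cell and not from macrophages alone, while the knockout does not extend to the implanted tumor cells.

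Class I molecules are heavy chains that pair with the light chain β2-microglobulin and hold a ligand at the cell surface. The classical heavy chains of these mice, H2-K1 and H2-D1, show peptides to CD8+ T cells, whereas the nonclassical ones vary less between individuals and show a narrower set of ligands, or none, to NK cells and to specialized T cells. Class I transcription is raised by interferons through factors that include IRF1 and the coactivator NLRC5, and macrophages carry class I molecules on their surface.

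Most of these genes were higher in TAM-KO than in TAM-WT on average, but none passed the test. On the log2 scale the fitted difference (TAM-KO minus TAM-WT) was above 0 for 8 of the 10, with a median of 0.22 over the 10 and of 0.00 over all 12412 genes tested. The 8 include H2-T10 at 0.01 (SE 0.52) and H2-T24 at 0.11 (SE 0.51), and 6 stayed above 0 in every fit. Some of the 8 are close copies that share reads, so they do not count as separate results. At an adjusted p of 0.05 (edgeR), 0 of 10 were called, whereas 1218 genes, or 9.81% of those tested, were. With a fold change of at least 2 as well, 0 of 10 were called against 2.53% of all genes. At an unadjusted p under 0.05 there were 3 of 10, H2-Q7, H2-T22 and H2-T23, and 30.7% of all genes fell under that value. DESeq2 called 2 of the 10, H2-Q7 and H2-T22, where it called 18.2% of all genes, and limma voom with quality weights called those and H2-T23, where it called 29.6%. The calls changed when single libraries were left out, TAM-WT replicate 1 for H2-Q7, H2-T22 and H2-T23 and TAM-WT replicate 4 for H2-T24.

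The 7 complete libraries held from 16225362 to 17280267 reads on genes. The table of TAM-KO replicate 1 lacks an unbroken run of 5311 genes that includes all 10 described here. For H2-Q6, H2-Q7, H2-T22 and H2-T23 a value of that library was taken from the authors' table of the whole series. It lists 3996 genes only, under the title of differentially expressed genes. The authors' own choice of genes thus decided which 4 members have a value of that library, and that choice is not independent of a difference between the groups. These values enter the FPKM means but not the fit, and the other 6 genes have 3 TAM-KO libraries. FPKM are reads scaled by gene length and library size, CPM are reads scaled by library size alone, and errors are SD unless stated. Colec11 itself had from 0 to 4 counts in TAM-WT and 1 in each TAM-KO library, so that it cannot check the labels. All 9 macrophage markers were detected, with sums from 7289 to 9350 CPM in TAM-WT and from 7915 to 8966 CPM in TAM-KO, and the 7 melanoma markers were abundant too, from 3916 to 8051 CPM and from 7192 to 8819 CPM. In a bulk sample, more class I RNA per macrophage and more RNA from another cell type rich in class I cannot be told apart.

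The promoters of the 3 genes with the smallest p are shown first, together with that of H2-Q6, the neighbor of H2-Q7, and that of H2-M3, which differed little between the groups. Each is the 250 bases before the start site in RefSeq on build GRCm38.p6, written 5′ to 3′ on the strand of the gene. The windows are chr17:36042743-36042992 (minus strand), chr17:36032702-36032951 (minus strand), chr17:35438905-35439154, chr17:35424600-35424849 and chr17:37269984-37270233 (plus strand). The H2-Q7 window ends at 35439154 and that gene is listed from 35439140, so the last bases of this window lie within the gene as listed. Capitals mark an interferon-stimulated response element (ISRE, searched as GAAA, any 2 bases, GAAA), the stretch TTTCACTT, and the Y box core ATTGG, each on both strands, so that CCAAT is ATTGG read on the other strand.
H2-T22: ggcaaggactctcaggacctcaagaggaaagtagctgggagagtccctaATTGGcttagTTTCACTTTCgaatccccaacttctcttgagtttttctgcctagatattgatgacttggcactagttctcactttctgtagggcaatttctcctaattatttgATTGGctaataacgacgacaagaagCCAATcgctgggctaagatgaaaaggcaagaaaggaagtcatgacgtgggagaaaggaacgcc
H2-T23: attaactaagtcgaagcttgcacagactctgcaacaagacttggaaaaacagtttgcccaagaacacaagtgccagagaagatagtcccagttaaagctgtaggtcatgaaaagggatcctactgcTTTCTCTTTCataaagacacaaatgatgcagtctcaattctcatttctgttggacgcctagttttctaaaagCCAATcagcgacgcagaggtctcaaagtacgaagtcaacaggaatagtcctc
H2-Q7: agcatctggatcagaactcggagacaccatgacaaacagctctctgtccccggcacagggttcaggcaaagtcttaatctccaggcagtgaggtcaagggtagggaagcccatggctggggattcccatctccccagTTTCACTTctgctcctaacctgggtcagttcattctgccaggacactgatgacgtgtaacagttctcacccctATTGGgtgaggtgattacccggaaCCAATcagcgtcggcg
H2-Q6: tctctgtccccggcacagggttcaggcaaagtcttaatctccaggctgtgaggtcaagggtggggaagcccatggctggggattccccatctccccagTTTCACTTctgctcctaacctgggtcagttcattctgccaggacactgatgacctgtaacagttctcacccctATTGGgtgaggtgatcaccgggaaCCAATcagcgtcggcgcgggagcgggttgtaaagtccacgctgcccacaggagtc
H2-M3: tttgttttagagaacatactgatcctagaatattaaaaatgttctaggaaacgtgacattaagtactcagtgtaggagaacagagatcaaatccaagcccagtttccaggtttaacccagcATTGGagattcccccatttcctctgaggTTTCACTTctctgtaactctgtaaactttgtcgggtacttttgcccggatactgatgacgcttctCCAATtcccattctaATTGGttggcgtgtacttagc

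A RefSeq promoter was given for 7 of the 10 genes, all but H2-T10, H2-T24 and Cd1d1, and motifs were counted in windows that reach from 250 bases before to 50 bases after the start. The ISRE letters were in 2 of the 7, H2-T22 with its match 191 bases before the start and H2-T23 with its match 124 bases before it, and in 3.44% of 32851 mouse promoters. The stretch TTTCACTT, chosen after the windows were seen, was in 5 of the 7 (H2-T22, H2-Q4, H2-Q6, H2-Q7 and H2-M3) and in 1.6% of all promoters. In H2-T22 it overlaps the ISRE match, whereas in the other 4 it does not complete one. ATTGG or CCAAT was in 7 of 7 and in 37.4% of all promoters. The letters of the X2 box core, TGACGC, were in H2-M3 and H2-Q4 and in 7.4% of all promoters. In H2-M3 the match lies 46 bases before the start, and in H2-Q4 it lies 30 bases after it and on the other strand. H2-Q4, H2-Q6 and H2-Q7 have the same arrangement, with TTTCACTT followed after 73 or 74 bases by ATTGG and after 24 more by CCAAT, and H2-D1 has it with 74 and 23 bases. TTTCACTT, ATTGG and CCAAT follow each other in H2-K1 as well, where they begin 104, 30 and 6 bases before a start site. H2-T22 has ATTGG and CCAAT 25 bases apart. These matches describe letters only, and no binding was measured.

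H2-T23 encodes the heavy chain of Qa-1b, which holds a peptide cut from the leaders of other class I chains and shows it to the CD94/NKG2A receptor of NK cells and CD8+ T cells. It lies on chromosome 17 from 36029977 to 36032701 (minus strand). In TAM-WT it read 109.7, 47.2, 68.0 and 62.8 FPKM in replicates 1 to 4. In TAM-KO it read 97.0, 136.7, 121.2 and 103.9 FPKM. TAM-WT replicate 1 stood among the TAM-KO libraries and above 2 of them, while the other 3 TAM-WT libraries were below all of TAM-KO. The means were 71.9 ± 26.7 FPKM (n = 4) and 114.7 ± 17.9 FPKM (n = 4), and the fitted log2 fold change was 0.65 (SE 0.24; 95% interval 0.09 to 1.2; adjusted p = 0.116), so that the difference did not pass the test although its own interval lies above 0. Without TAM-WT replicate 1 it was 0.89 (adjusted p = 0.0274).

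**Figure D1:**
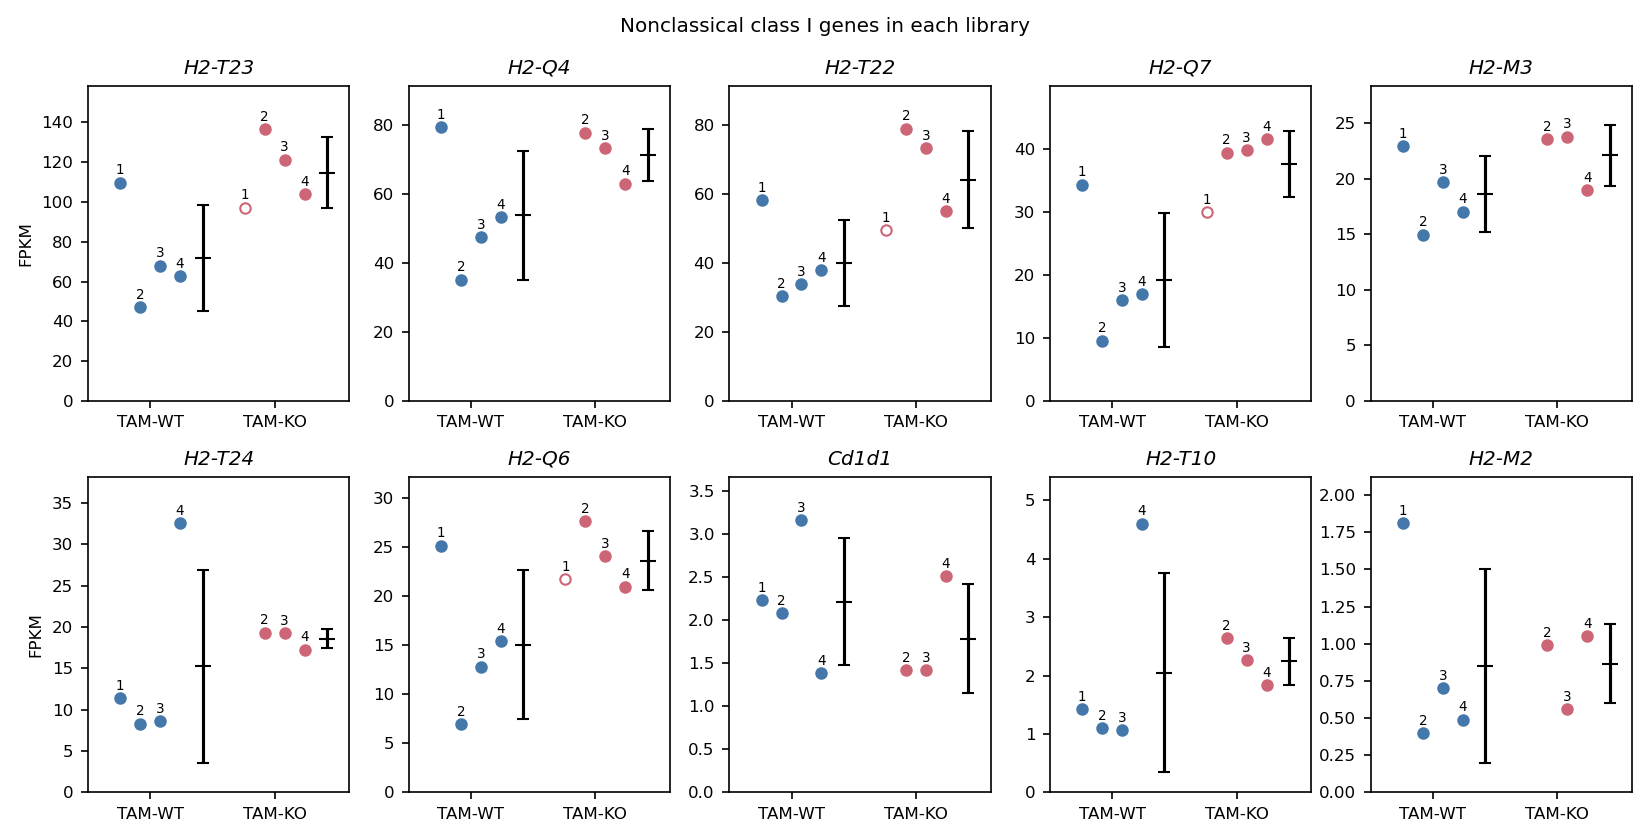
FPKM of the 10 genes in each library, in the order of their TAM-WT means, with each panel on its own axis from 0. Numbers are replicates, the open point is TAM-KO replicate 1 from the table of the whole series, and black bars are means with SD. TAM-WT replicate 1 is the highest TAM-WT library for 7 of the 10 genes and TAM-WT replicate 4 for H2-T24 and H2-T10.

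H2-T22 and H2-T10 encode closely related heavy chains that bind no peptide and are ligands of a subset of γδ T cells. In the reference genome H2-T22 (chromosome 17, 36037128 to 36042742, minus strand) is annotated as protein coding, whereas H2-T10 (36115871 to 36121444, minus strand) is a transcribed pseudogene in RefSeq and a polymorphic pseudogene in GENCODE. H2-T22 read 58.2, 30.3, 33.8 and 37.9 FPKM in TAM-WT replicates 1 to 4. In TAM-KO replicates 1 to 4 it read 49.5, 79.0, 73.3 and 55.0 FPKM. Again TAM-WT replicate 1 overlapped with TAM-KO and the other 3 TAM-WT libraries did not. The log2 fold change was 0.66 (SE 0.20; 95% interval 0.19 to 1.13; adjusted p = 0.0732), from 40.1 ± 12.5 FPKM to 64.2 ± 14.2 FPKM (n = 4 each). Without TAM-WT replicate 1 it was 0.86 (adjusted p = 0.0233).

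H2-T10 was a low gene, with 47.9 to 209.8 counts per library. It read 1.43, 1.10, 1.07 and 4.60 FPKM in TAM-WT. The TAM-KO replicates 2 to 4 read 2.64, 2.26 and 1.84 FPKM. The TAM-KO libraries were above 3 of the TAM-WT libraries and below TAM-WT replicate 4, which held more H2-T10 than any other library. The fitted log2 fold change was 0.01 (SE 0.52; 95% interval -1.19 to 1.21; adjusted p = 0.992), an interval that leaves room for more than a doubling or a halving. Without TAM-WT replicate 4 the log2 fold change was 0.81 (adjusted p = 0.0658), and without any one of the other TAM-WT libraries it turned negative, from -0.21 to -0.14.

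H2-T24, a heavy chain gene of the same T region (36003471 to 36020800, minus strand), had the same pattern at a higher level. It read 11.4, 8.32, 8.61 and 32.5 FPKM in TAM-WT. In TAM-KO replicates 2 to 4 it read 19.3, 19.2 and 17.2 FPKM. The 3 TAM-KO libraries lay close together, above TAM-WT replicates 1 to 3 and well below TAM-WT replicate 4. With all libraries the log2 fold change was 0.11 (SE 0.51; 95% interval -1.06 to 1.28; adjusted p = 0.907). Without TAM-WT replicate 4 it was 0.91 (SE 0.14, adjusted p = 0.0292), which made H2-T24 the 1 of 10 genes called in that fit, where 3.34% of all genes were. Replicate 4 was the TAM-WT library highest in H2-T24, so leaving it out favors such a call. Without TAM-WT replicate 1, 2 or 3 the log2 fold change was between -0.12 and -0.03.

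H2-T22, H2-T10 and H2-T24 thus did not move together from library to library. H2-T23 lies in the T region too, between H2-T24 and H2-T22, and is not part of this comparison. H2-T10 had between 4.34% and 6.33% of the counts of H2-T22 in TAM-WT replicates 1 to 3 and between 5.44% and 5.87% in TAM-KO, but 20.1% in TAM-WT replicate 4. H2-T22 had 2.76 to 4.32 times the counts of H2-T24 in those same 6 libraries and 0.967 times in TAM-WT replicate 4. When the counts of the 3 genes were added into 1 row, the log2 fold change was 0.48 (SE 0.26; adjusted p = 0.249), and for H2-T10 and H2-T22 added together it was 0.62 (SE 0.21; adjusted p = 0.0879).

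**Figure D2:**
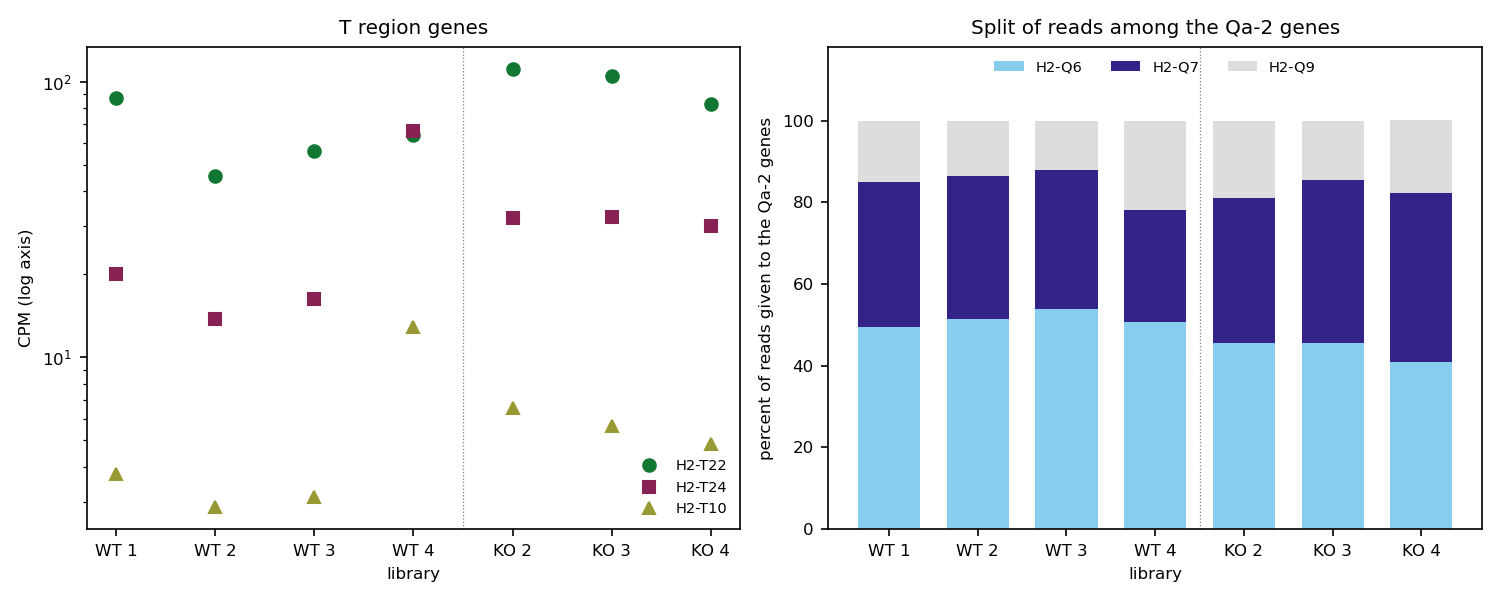
Left, CPM of H2-T22, H2-T24 and H2-T10 in the 7 complete libraries on a log axis, where H2-T24 and H2-T10 are highest in TAM-WT replicate 4 and H2-T22 is not. Right, the share of reads given to H2-Q6, H2-Q7 and H2-Q9 in each library, where H2-Q7 takes from 27.3% to 41.4%.

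H2-Q6 and H2-Q7 belong to the genes that encode Qa-2, a heavy chain anchored in the membrane by a lipid that is found on many blood cells. H2-Q7 lies on chromosome 17 from 35439140 to 35443773 and H2-Q6 from 35424850 to 35430055, both on the plus strand. H2-Q7 read 34.3, 9.55, 15.99 and 16.97 FPKM in TAM-WT. TAM-KO gave 29.9, 39.4, 39.8 and 41.5 FPKM, so that TAM-KO replicate 1 was below TAM-WT replicate 1 and the groups overlapped. Its means were 19.2 ± 10.6 FPKM and 37.6 ± 5.23 FPKM (n = 4 each). On CPM over the 7 complete libraries it was the 1 gene of the 10 whose groups did not overlap, with TAM-KO higher, as 12% of all genes tested were. H2-Q7 had the largest fitted difference of the 10, a log2 fold change of 1.02 (SE 0.36; 95% interval 0.20 to 1.84; adjusted p = 0.098), or 2.03-fold. It was 1.46 (adjusted p = 0.0163) without TAM-WT replicate 1, and 0.92 (adjusted p = 0.0959) with TAM-KO replicate 1 filled in from the table of the whole series.

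H2-Q6 read 25.2, 6.93, 12.8 and 15.4 FPKM in TAM-WT. In TAM-KO it read 21.7, 27.6, 24.1 and 21.0 FPKM. TAM-WT replicate 1 was above all TAM-KO libraries but replicate 2, and TAM-WT replicate 2 was the lowest of the 8. The log2 fold change was 0.58 (SE 0.34; 95% interval -0.21 to 1.37; adjusted p = 0.293). H2-Q9, a further Qa-2 gene, read 11.4, 2.70, 4.27 and 9.90 FPKM in TAM-WT and 9.37, 16.8, 11.4 and 13.4 FPKM in TAM-KO (log2 fold change 0.87, SE 0.43, adjusted p = 0.212), while H2-Q8 was listed at 0 in all 7 complete libraries.

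Because Qa-2 genes are near copies, their reads were also added up. The sum of H2-Q6, H2-Q7, H2-Q8 and H2-Q9 was 94.8, 24.9, 49.1 and 60.2 CPM in TAM-WT and 105.7, 93.7 and 95.4 CPM in TAM-KO replicates 2 to 4. TAM-WT varied 3.80-fold from lowest to highest and its highest library reached the TAM-KO range, while TAM-KO spread little. The log2 fold change of the sum was 0.78 (SE 0.35; adjusted p = 0.176), and that of H2-Q6 and H2-Q7 alone 0.77 (SE 0.35; adjusted p = 0.176). Of the summed reads, H2-Q7 took 32.9% ± 3.81 in TAM-WT (n = 4) and 38.9% ± 3.07 in TAM-KO (n = 3), whereas H2-Q6 took 51.4% ± 1.89 and 44.1% ± 2.71. The H2-Q6 shares did not overlap between the groups, from 49.5% to 54.0% in TAM-WT and from 40.9% to 45.7% in TAM-KO, and no test was made of a share chosen after its values were seen.

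H2-Q4 (chromosome 17, 35379617 to 35384674, plus strand) is a heavy chain gene of the same Q region. It read 79.3, 35.2, 47.4 and 53.2 FPKM in TAM-WT. TAM-KO replicates 2 to 4 read 77.8, 73.3 and 63.0 FPKM. TAM-WT replicate 1 was the highest of the 7 libraries, and the other TAM-WT libraries were all below TAM-KO. The log2 fold change was 0.31 (SE 0.23; 95% interval -0.22 to 0.83; adjusted p = 0.403).

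H2-M3 shows peptides that begin with N-formyl methionine, as those of bacteria and mitochondria do, to T cells. It lies on chromosome 17 from 37270234 to 37274485 (plus strand) and shares almost no transcript sequence with other genes. It read 22.9, 14.98, 19.7 and 17.1 FPKM in TAM-WT. TAM-KO replicates 2 to 4 read 23.6, 23.8 and 19.0 FPKM. The groups overlapped, and the log2 fold change of 0.14 (SE 0.15; 95% interval -0.21 to 0.49; adjusted p = 0.568) was the most tightly bounded of the 10. H2-M2 (37480851 to 37483554, minus strand) was barely detected, with 36, 8, 14 and 10 counts in TAM-WT and 19, 11 and 21 counts in TAM-KO replicates 2 to 4. In FPKM these were 1.81, 0.40, 0.70 and 0.49 in TAM-WT and 0.99, 0.56 and 1.05 in TAM-KO. The fitted log2 difference was -0.07 (SE 0.53; adjusted p = 0.951), which turned positive when libraries were scaled by their totals or by FPKM, so that no direction can be given at this depth.

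Cd1d1 encodes CD1d, which shows lipids to NKT cells, and lies apart from the others on chromosome 3 (86995834 to 87012358, minus strand). It read 2.23, 2.08, 3.16 and 1.38 FPKM in TAM-WT. TAM-KO replicates 2 to 4 read 1.42, 1.42 and 2.51 FPKM. The groups overlapped over nearly their whole range. Its log2 fold change of -0.41 (SE 0.35; 95% interval -1.21 to 0.40; adjusted p = 0.47) did not pass the test.

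**Figure D3:**
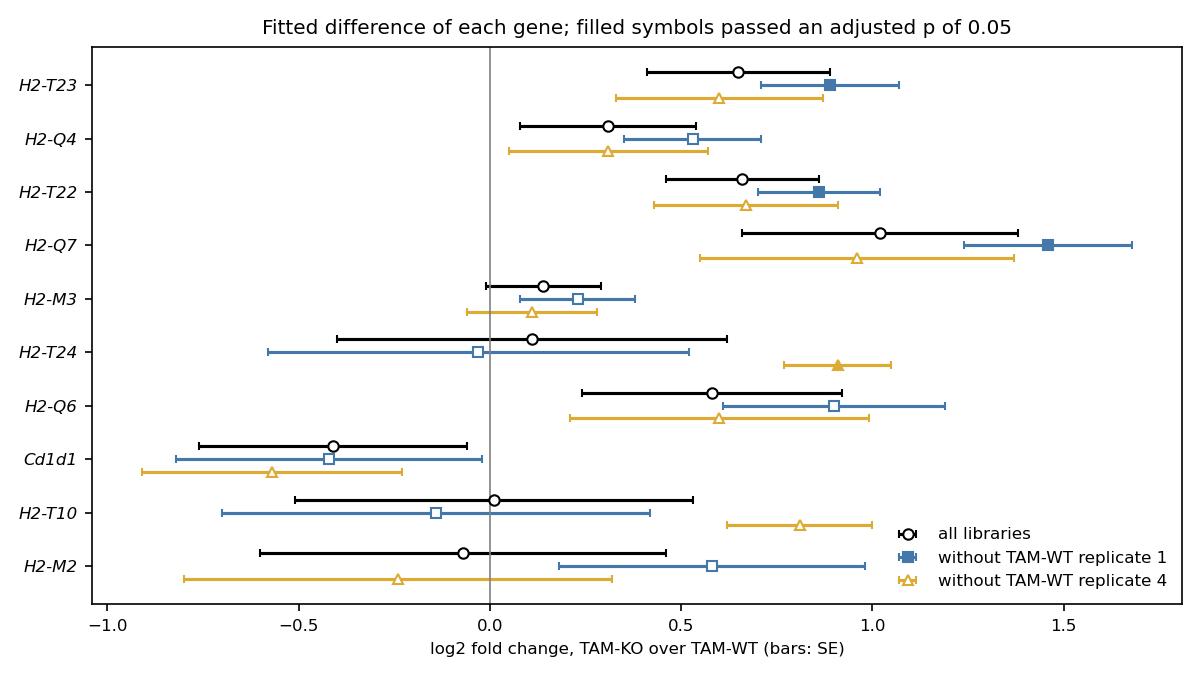
Fitted log2 fold change of each gene (TAM-KO over TAM-WT) with its SE, with all libraries, without TAM-WT replicate 1 and without TAM-WT replicate 4. Filled symbols passed an adjusted p of 0.05; these are H2-T23, H2-T22 and H2-Q7 without replicate 1, and H2-T24 without replicate 4.

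TAM-WT replicate 1 was the highest TAM-WT library for 7 of the 10 genes, and TAM-WT replicate 2 was the lowest for 8. Leaving out replicate 1 raised the count of genes called from 0 to 3 (H2-T22, H2-T23 and H2-Q7), in a fit that called 9.31% of all genes, and H2-Q4 and H2-Q6 remained uncalled. In that set of libraries the groups did not overlap for 5 of 10 genes, H2-T22, H2-T23, H2-Q4, H2-Q6 and H2-Q7, all higher in TAM-KO, as against 15.9% of all genes tested. Replicate 1 was the highest TAM-WT library for all 5, so leaving it out favors both results. The shares of all genes carry no such choice of library, so they are not a like comparison. Leaving out any one of the other libraries but TAM-WT replicate 4 left 0 of 10 called.

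By FPKM, which is per length, the genes spanned a wide range. In TAM-WT the order of mean levels was H2-T23 at 71.9, H2-Q4 at 53.8, H2-T22 at 40.1, H2-Q7 at 19.2, H2-M3 at 18.7, H2-T24 at 15.2, H2-Q6 at 15.1, Cd1d1 at 2.21, H2-T10 at 2.05 and H2-M2 at 0.85 FPKM. H2-T23 exceeded H2-Q4, H2-Q4 exceeded H2-T22, and H2-T22 exceeded H2-Q7 in 4 of 4 TAM-WT libraries. The 4 genes from H2-Q7 to H2-Q6 were not ordered alike, since H2-Q7 exceeded H2-M3 in 1 of 4 TAM-WT libraries and in 3 of 3 TAM-KO libraries, and H2-T24 exceeded H2-Q6 in 2 of 4 and in 0 of 3. Summed, the 10 genes amounted to 16.97% ± 1.80 of the summed FPKM of the classical H2-K1 and H2-D1 in TAM-WT (n = 4) and to 19.6% ± 2.07 in TAM-KO (n = 3), with overlapping ranges.

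Reads of close copies can be assigned to the wrong gene, so the protein-coding transcripts of each gene were cut into stretches of 50 and of 100 bases and looked up in all other GENCODE transcripts. H2-T22 had 43.9% of its 50-base stretches in another gene, mostly H2-T10, and H2-T10 had 42.9%, mostly H2-T22. The shares were 34.9% for H2-Q7, most of all with H2-Q5 (17.4%), 32% for H2-Q6, 28.8% for H2-T23, 25.1% for Cd1d1 and 24.3% for H2-Q4. They were 3.17% for H2-T24, 1.61% for H2-M2 and 0.576% for H2-M3. At 100 bases H2-Q7 had the largest share, 17.2%, and H2-T24, H2-M2 and H2-M3 had 0. In these transcripts H2-T24 and H2-M3 therefore rest almost wholly on sequence of their own, whereas the levels of H2-T10 and H2-T22, and of H2-Q6 and H2-Q7, are uncertain one by one. Those of H2-T23, Cd1d1 and H2-Q4 are uncertain in part. The authors list H2-T10, H2-T23, H2-Q8 and H2-Q9 on separate scaffolds, so the sequences to which reads were assigned may differ from these transcripts. H2-Q9 was not in the transcripts used, so its overlap with H2-Q6 and H2-Q7 is not counted in these shares.

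**Figure D4:**
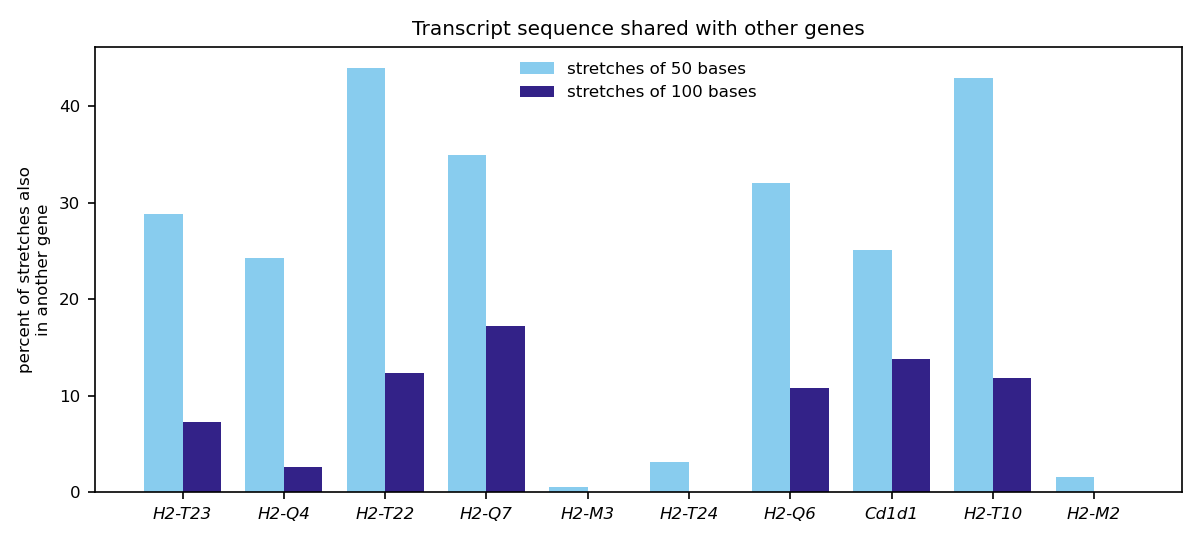
Percent of the 50-base and 100-base stretches of each gene's protein-coding transcripts that also occur in a transcript of another gene, ordered by TAM-WT level. H2-T22 and H2-T10 share most at 50 bases, with 43.9% and 42.9%, and H2-M3, H2-T24 and H2-M2 share least.

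The partners of these heavy chains gave values of the same kind. The light chain B2m read 3658, 1958, 2614 and 3281 FPKM in TAM-WT and 4497, 4112 and 3665 FPKM in TAM-KO replicates 2 to 4 (log2 fold change 0.41, SE 0.20, adjusted p = 0.204). The classical H2-K1 had a log2 fold change of 0.50 (SE 0.20, adjusted p = 0.125) and H2-D1 one of 0.26 (SE 0.16, adjusted p = 0.311). The main fit called 9.81% of all genes tested. Of 15 class I assembly genes, B2m included, 6 rose and 0 fell, with a median log2 fold change of 0.47. They were Tap2, a subunit of the peptide transporter (0.69, SE 0.16, adjusted p = 0.0302), Tapbpl, a peptide editor (0.97, SE 0.18, adjusted p = 0.0209), the immunoproteasome subunits Psmb9 (1.11, SE 0.23, adjusted p = 0.0285) and Psmb10 (0.64, SE 0.15, adjusted p = 0.033), and the proteasome activator subunits Psme1 and Psme2 (0.46 and 0.47, SE 0.12 each). The count depended on single libraries, being 0 when replicate 3 of either group or replicate 2 of TAM-KO was left out, and 1 when replicate 4 of TAM-WT was. Those fits called from 77 to 416 genes in all, against 1218 in the main fit.

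Of 6 transcription factors and coactivators of class I genes, 3 rose and 0 fell, where 9.81% of all genes tested were called. Nlrc5, the class I coactivator, read 8.41, 3.16, 4.56 and 7.46 FPKM in TAM-WT and 11.9, 20.8, 19.3 and 14.7 FPKM in TAM-KO, a log2 difference of 1.37 (SE 0.29, adjusted p = 0.0265) with no overlap. On the log2 scale Irf1 rose by 0.82 (SE 0.21, adjusted p = 0.0488) and Rfx5 by 0.37 (SE 0.09, adjusted p = 0.0361). Irf2, Rfxank and Rfxap did not pass, at 0.17, 0.13 and -0.03. None of the 6 was called when replicate 3 of either group or replicate 2 of TAM-KO was left out, and Nlrc5 alone was called when replicate 4 of TAM-WT or replicate 1 of TAM-KO was. These fits called from 77 to 682 genes in all. In each of them, with edgeR, 3 of the 6 had an unadjusted p under 0.05. In the main fit 30.7% of all genes had, and that share was not counted in these fits. Irf1 was also not called with DESeq2 size factors, or without replicate 1 of TAM-WT or replicate 4 of TAM-KO. Within TAM-WT, replicate 1 had the most Nlrc5 and replicate 2 the least, as for H2-T22, H2-T23, H2-Q4, H2-Q6 and H2-Q7, but TAM-WT replicate 1 remained below all TAM-KO libraries in Nlrc5.

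Of 19 other class I-like genes, 13 had a value, 6 were tested and 0 were called, with 1 at an unadjusted p under 0.05. Those at 5 FPKM or more besides H2-Q9 were Fcgrt, the neonatal Fc receptor (55.9 ± 7.83 and 66.4 ± 14.6 FPKM), Hfe, a regulator of iron (19.6 ± 2.495 and 21.0 ± 1.72 FPKM), Procr, the protein C receptor (15.4 ± 3.31 and 16.9 ± 1.69 FPKM), and Mr1, which shows vitamin B metabolites to MAIT cells (11.2 ± 1.85 and 11.02 ± 0.80 FPKM). In TAM-WT n was 4, and in TAM-KO 4 for Procr and 3 for the others. Their log2 fold changes were 0.15, -0.03, 0.04 and -0.12. Of 8 receptors for class I and class I-like molecules, 7 were tested and 0 were called, with 4 at an unadjusted p under 0.05. Of all genes tested, 9.81% were called and 30.7% fell under that unadjusted p. DESeq2 called Cd8a higher and Lilrb4a lower, and limma voom called those and Klrc1 and Klrk1, the latter pair higher. DESeq2 called 18.2% of all genes and limma voom 29.6%. Klrc1 encodes NKG2A, the partner of CD94 in the receptor of Qa-1b. The edgeR fit called Klrc1, Klrk1 and Cd8a, all higher in TAM-KO, without TAM-WT replicate 1, where it called 9.31% of all genes. That replicate was the TAM-WT library highest in each of them.

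Within TAM-WT, the summed markers of T, NK, B and dendritic cells were highest in replicate 1 and lowest in replicate 2. Replicate 1 was also the TAM-WT library highest in most of the 10 genes. The 9 T cell markers summed to 35.4, 13.0, 20.4 and 14.9 CPM in TAM-WT replicates 1 to 4 and to 78.5, 64.8 and 35.5 CPM in TAM-KO replicates 2 to 4. The 8 NK cell markers, of which 7 had more than 3 counts in some library, summed to 23.5, 1.43, 3.52 and 5.46 CPM and to 61.4, 55.7 and 16.5 CPM. TAM-WT replicate 1 was the highest TAM-WT library for 8 of the 9 T cell markers and for 7 of the 8 NK cell markers. In the main fit 1 of each list was called, Cd2 and Eomes, both higher in TAM-KO, where 9.81% of all genes were called. Without TAM-WT replicate 1, 7 of the T cell markers and 4 of the NK cell markers were called higher in TAM-KO, and 1 T cell marker, Cd28, lower. That fit called 9.31% of all genes, and it leaves out the TAM-WT library highest in most of these markers, which favors such calls. Without replicate 3 or 4 of TAM-WT, or replicate 2 or 3 of TAM-KO, edgeR called 0 of either list, and 77 to 416 genes in all. In those fits 6 to 8 T cell and 2 to 3 NK cell markers were at an unadjusted p under 0.05. In the main fit 30.7% of all genes were, and that share was not counted in those fits. In TAM-KO, the T and NK cell sums were highest in replicate 2 and lowest in replicate 4. The sums of melanoma markers (8819, 8618 and 7192 CPM in replicates 2 to 4) and of endothelial cell markers (45.5, 37.6 and 36.6 CPM) had this order too. Those of B cell, neutrophil, dendritic cell, fibroblast and macrophage markers did not. The share of all genes with this order was not counted. In CPM, H2-T10, H2-T22, H2-T23, H2-Q4 and H2-Q6 had that same order over the 3 TAM-KO libraries, H2-T24 and H2-M3 were also lowest in replicate 4, and H2-Q7, H2-M2 and Cd1d1 were highest there. The dendritic cell markers, all 6 of which were highest in replicate 1 among the TAM-WT libraries, summed to 32.2, 13.8, 24.4 and 25.7 CPM in TAM-WT and to 20.6, 19.1 and 22.9 CPM in TAM-KO. In the main fit 1 of them, Xcr1, was called higher in TAM-KO. DESeq2, limma voom, and edgeR without TAM-WT replicate 2 called Xcr1 higher and Cd209a lower. Neither was called without replicate 3 or 4 of TAM-WT or replicate 1, 2 or 3 of TAM-KO (77 to 682 genes in all). With TAM-KO replicate 1 filled in, neither was called, and 1109 genes were in all. The B cell markers summed to 4.30 to 7.18 CPM in TAM-WT and to 5.49 to 10.12 CPM in TAM-KO. Although their sum was highest in TAM-WT replicate 1 among the TAM-WT libraries, only 1 of the 4 markers was. The melanoma markers summed higher in TAM-KO and in TAM-WT replicate 2, the TAM-WT library lowest in most of the 10 genes, than in the other 3 TAM-WT libraries, and 1 of 7, Sox10, was called, higher in TAM-KO. All 7 were called higher in TAM-KO without TAM-WT replicate 2, the TAM-WT library with the highest sum, in a fit that called 2755 of 12436 genes. Without replicate 3 or 4 of TAM-WT or replicate 1, 2 or 3 of TAM-KO, 0 were called, and 77 to 682 genes in all. In those fits 4 to 5 had an unadjusted p under 0.05 in edgeR, and the share of all genes under it was not counted there. With DESeq2 5 were called and with limma voom 7, where 18.2% and 29.6% of all genes were. The part of T, NK, B, dendritic, endothelial and melanoma cells in the class I values was not tested.

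**Figure D5:**
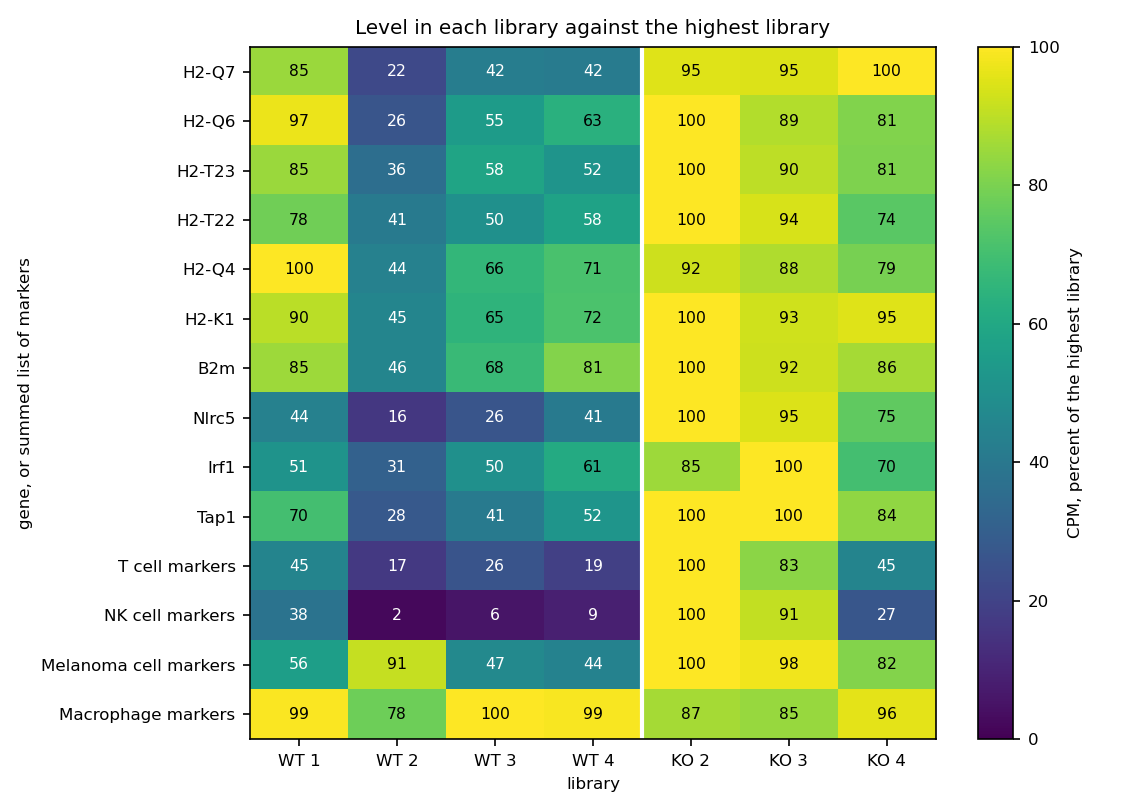
CPM of class I genes, their regulators and summed marker lists in the 7 complete libraries, each as a percent of its highest library. TAM-WT replicate 1 is at 85.0% for H2-Q7, at 44.0% for Nlrc5 and at 45.1% for the T cell markers, and TAM-WT replicate 2 is the lowest of the 7 in all 10 genes shown.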

How the data were processed

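Bulk RNA-Seq of sorted TAMs from 4 WT and 4 Colec11-/- mice was analysed, with groups taken from the genotype in the labels. The submitters' processing notes name HISAT2 2.0.4, Bowtie2 2.2.5, RSEM 1.2.12 and GRCm38.p6, and the study gives BGISEQ-500. Strandedness and read length were not given in the sources used here. The authors deposited expected counts per gene from RSEM, not normalized, and FPKM, scaled by gene length and library. The authors' table of the whole series also holds fold changes and p-values of their own, which were not used.

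After rounding of the expected counts, genotype was tested by edgeR 4.0.16 under R 4.3.3 (TMM, filterByExpr, glmQLFit, glmQLFTest), with Benjamini-Hochberg adjustment over all genes. Genes missing from TAM-KO replicate 1 were fitted on the remaining 7 libraries, other genes on 8. CPM were scaled by TMM over 7 libraries. SE were taken as the log2 fold change over the root of the F statistic, and 95% intervals from the SE and the degrees of freedom of the fit. The authors' methods set q of at most 0.05 and a 2-fold change without naming the test. RSEM shares reads among close copies by an estimate, so counts of paralogs are not independent.

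In the table of TAM-KO replicate 1, 629 values that belonged to other genes and 1 line that held parts of 2 genes were not used. Of 30781 values given in both kinds of table, 30780 were equal. On counts simulated for TAM-KO against TAM-WT on 7 libraries (12372 genes), the test called 70.4% of genes changed 2-fold, 95.0% of those changed 4-fold and 13 unchanged genes. Each gene was drawn on its own, with no shift shared by a whole library, and the changed genes were picked at random. These shares therefore do not give the rate of calls for the 10 genes described here. Fitted errors carry the spread between mice.

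The genes and lists were chosen with earlier results of these data known. Members, classical chains and regulators were to be named, class I-like genes if called or at 5 FPKM or more, and genes of other lists if called. Any further gene is marked as chosen once its values were known. Alternatives were DESeq2 size factors, library totals, DESeq2 1.42.0, limma 3.58.1 with voom and quality weights or on log2(FPKM + 0.1) or log2(FPKM + 1), a minimum of 10 counts per library or no filter, a replicate block, each library left out, TAM-KO replicate 1 filled in, paralogs summed, a 1.5-fold change and an adjusted p of 0.01. The sums of H2-Q6 to H2-Q9 and of H2-T10, H2-T22 and H2-T24 were added after seeing the data. Some genes of these lists are not reported here, and the regulators are counted without them.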

Additional observations from a re-analysis of the deposited data

Results flagged for a closer look

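Among the 14 groups of 4 libraries examined, 1 library stood far from the others in 2 groups, where about 0.7 would by chance. Both were TAM-WT replicate 4, with 4.6 FPKM of H2-T10, whose gap to the next library was 89.8% of the range of the group, and 32.5 FPKM of H2-T24, with a gap of 87.2%. In H2-T24, 3.17% of 50-base stretches occurred in any other gene. The cause was not tested.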

How the results depend on the processing

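Of the 10 genes, 6 kept a positive log2 fold change in every fit (H2-T22, H2-T23, H2-Q4, H2-Q6, H2-Q7 and H2-M3), and Cd1d1 kept a negative one. Genes called numbered 2 with DESeq2 and 3 with limma voom, and 1 in each was also past 2-fold. All genes called numbered 2253 and 3680 there, and 36 at an adjusted p of 0.01, where 0 assembly genes remained. With a replicate block, 3 members (H2-T22, H2-T23 and H2-Q7) were called, 1 of them past 2-fold, in a fit that called 1080 genes in all. That fit called 3 assembly genes but 0 of the 6 regulators (3 at an unadjusted p under 0.05 in edgeR). The share of all genes under that p was not counted in it. The labels do not say whether the numbers pair these mice. Same-numbered libraries correlated from -0.325 to 0.261 with 1 of 4 pairs over 0.1. Differently numbered ones correlated from -0.303 to 0.376, so these values cannot decide it. Leaving out 1 library gave 0 to 3 members, 0 to 1 past 2-fold, 77 to 2755 genes in all and 0 to 8 assembly genes. The log2 fold change of H2-T10 then ran from -0.21 to 0.81, that of H2-T24 from -0.12 to 0.91 and that of H2-M2 from -0.32 to 0.58. H2-M2 also turned positive with library totals (0.03), log2(FPKM + 1) (0.06), log2(FPKM + 0.1) (0.20) and the replicate block (0.57). FPKM moved the median of all genes by 0.09 to 0.11, and library totals by 0.09. The cause of these changes was not tested. At 8 to 36 counts per library, H2-M2 is limited by depth.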

Other observations

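Ranked by how far TAM-WT replicate 4 lay above the highest other TAM-WT library, on log2(CPM + 0.5), H2-T24 and H2-T10 were 3rd and 4th of 10374 genes with a mean of at least 5 CPM, with gaps of 1.70 and 1.65. The following genes were chosen after their values were seen. Hmga1b was first, with 229.3 CPM in TAM-WT replicate 4 and at most 0.226 CPM in each of the other 6 complete libraries. Morf4l1b, the 5th, had 57.7 CPM in TAM-WT replicate 4, 14.0 to 18.8 CPM in the other TAM-WT libraries and 9.64 to 16.1 CPM in TAM-KO. Man2c1 read 66.5 CPM in TAM-WT replicate 4, 26.8 to 31.8 CPM in the other TAM-WT libraries and 62.7 to 73.3 CPM in TAM-KO. Apoe, the lipid carrier of macrophages, read 508.5 CPM in TAM-WT replicate 4, 2730 to 3504 CPM in the other TAM-WT libraries and 402.5 to 424.3 CPM in TAM-KO. H2-T24 was highest in TAM-WT replicate 4 (66.3 CPM), lowest in the other TAM-WT libraries (13.8 to 20.1 CPM) and in between in TAM-KO (30.0 to 32.2 CPM). H2-T10 had the same order, with 12.9 CPM, 2.87 to 3.77 CPM and 4.85 to 6.54 CPM. Mical2, the 6th, had it too, with 43.95 CPM, 9.11 to 16.5 CPM and 18.3 to 35.5 CPM.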
